A study of Mus musculus with 4 samples.

Results

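A set of 116 genes read at least 2-fold higher in SH-2251-treated Th2 cells than in control Th2 cells, both at rest and after restimulation. A gene entered the set if its probe with the highest mean signal was well above background on all 4 arrays and its log2 value was higher by 1 or more in each of the 2 states. Of 18344 RefSeq genes on the array, 11459 were above background on all 4 arrays, and 121 of these (1.06%) met the rule. Itgae, Wls, Ifi204, Ifi211 and Pdlim4 were left out by name, which leaves the 116. Of these, 114 have a symbol, and 2 are given by their RefSeq accession, NM_172944 and NM_001045481.

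SH-2251 is a small compound studied as an inhibitor of IL-5 production by Th2 cells. CD4 T cells from the spleen of female C57BL/6J mice were activated for 2 days through the T cell receptor (anti-TCR-β, 3 µg/ml) and CD28 (anti-CD28, 1 µg/ml) with IL-2 at 2.5 ng/ml and IL-4 at 10 ng/ml, and were kept in the same cytokines for 3 more days. The 4 conditions were control cells at rest, SH-2251-treated cells at rest, control cells restimulated for 4 h with plate-bound anti-TCR-β, and SH-2251-treated cells restimulated in the same way. The sample labels put SH-2251 at 1 µM in the first phase and at 1 mM in the second, and the methods of the study give another dose and a naive starting population, so the dose stands here as unsettled. Each condition was measured on 1 single-dye Agilent whole mouse genome array, and nothing in the labels says how many mice were pooled. With 1 array per condition, no test was made and no difference below has a replicate check.

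Th2 cells are the CD4 T helper cells that make the type 2 cytokines, among them IL-4 and IL-5, and direct the response to parasites and allergens. Their identity is set by the transcription factor GATA3, and the zinc finger repressor GFI1 supports their growth and is known to bind DNA at sites with the core AATC. When the T cell receptor of a resting Th2 cell is engaged again, cytokine genes, inhibitory receptors and early transcription factors are switched on within hours.

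Values are the log2 levels deposited by the study, given relative to the 75th percentile of each array, so that 0 is the level of that percentile. The technical SD beside a difference is the error that the scanner software estimates for the spots. It ran from 0.20 to 0.33 over the 116 resting SH-2251 differences and from 0.20 to 0.35 over the restimulated ones. It covers measurement of the spot and not variation between cultures.

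All 13 measured markers of CD4 T cells and Th2 cells were above background on all 4 arrays. Gata3 differed by -0.17 at rest and -0.03 after restimulation between SH-2251-treated and control cells, and Il4 by -0.12 and -0.23. Other genes of the same list were lower in treated cells, Maf by -1.17 and -1.22 and Il13 by -1.32 and -0.57. Of 15 measured Th2 identity genes, 7 were 2-fold lower in treated cells at rest and 6 after restimulation, where 2.16% and 1.83% of all genes were. Il5, at -3.86 and -3.01, and Gfi1, at -5.39 and -2.49, were among these 7 and 6 genes. Of markers of other cells, the B cell genes Blk, Pax5 and Ebf1, the myeloid genes Lyz2, Itgam, S100a8 and S100a9, and the NK cell genes Klrb1c, Ncr1 and Klre1 were not above background on any array. The summed linear level of the 12 B cell markers on the array was 41.7 and 36.5 in resting control and treated cells, and 33.8 and 47.2 in restimulated control and treated cells. The summed level of the 8 dendritic cell markers was 72.2 and 43.4 at rest and 65.5 and 53.6 after restimulation. Most of it came from Batf3 and Ccr7, at 5.72 and 4.25 in resting control cells, where Xcr1 was next at -2.30. Ccr7 was also on the list of naive and central memory T cell genes. Itgax, Siglech and Cd209a were not above background on any array, and Zbtb46 differed by -0.02 and 1.53 between treated and control cells. Of the 9 B cell markers above background, 6 were higher in treated cells at rest and 7 after restimulation, with medians of 0.18 and 0.62, among them Ms4a1 at 0.74 and 1.21 and Cd74 at 0.39 and 1.19, whereas H2-Ab1 differed by -0.51 and -0.06. The summed level of the 7 CD8 T cell and NK cell markers was higher on both treated arrays, at 0.45 and 0.69 at rest and 0.44 and 0.67 after restimulation. Of that list, Cd8a was higher in treated cells by 1.45 and 0.97, and Eomes was above background on the 2 treated arrays and on neither control array. Klrd1 and Gzmm, above background on all 4 arrays, differed by 0.06 and 0.60 and by 0.36 and -0.18. Of the 11 measured myeloid markers, Csf1r, Cd14, Fcgr3, Adgre1 and Fcer1g were above background on all 4 arrays. Their median differences were -0.26 and 0.03. Adgre1 was the brightest, at 1.30 in resting control cells, and differed by -0.10 and 0.09, whereas Fcgr3 differed by -1.44 and -1.11. The mast cell marker Cpa3, also above background on all 4 arrays, differed by -0.01 and -0.15. The part of these cells in the values below was not tested.

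Promoter sequences are shown for 3 genes of the set that stand for different sides of it: Slpi, the largest named change, Anxa1, which passed 4-fold in both states, and Gclm, an antioxidant enzyme gene. They are the 250 bases before the start of the RefSeq transcript (assembly GRCm38.p6), read 5′ to 3′ on the strand of the gene. Capitals mark the AATC core in Slpi (chr2:164356508-164356757, minus strand), the longer letters AAATCA in Anxa1 (chr19:20390672-20390921, minus strand) and the antioxidant response letters TGACNNNGC in Gclm (chr3:122245307-122245556, plus strand), on either strand.
Slpi: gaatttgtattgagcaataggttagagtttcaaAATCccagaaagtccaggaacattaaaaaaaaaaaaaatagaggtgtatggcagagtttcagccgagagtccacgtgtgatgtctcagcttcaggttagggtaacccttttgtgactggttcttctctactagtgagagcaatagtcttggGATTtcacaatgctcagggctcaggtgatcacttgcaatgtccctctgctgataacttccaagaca
Anxa1: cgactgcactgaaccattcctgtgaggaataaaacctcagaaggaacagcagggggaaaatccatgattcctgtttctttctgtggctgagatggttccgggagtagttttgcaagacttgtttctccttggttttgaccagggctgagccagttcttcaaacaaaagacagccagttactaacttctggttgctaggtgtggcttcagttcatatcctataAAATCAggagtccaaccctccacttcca
Gclm: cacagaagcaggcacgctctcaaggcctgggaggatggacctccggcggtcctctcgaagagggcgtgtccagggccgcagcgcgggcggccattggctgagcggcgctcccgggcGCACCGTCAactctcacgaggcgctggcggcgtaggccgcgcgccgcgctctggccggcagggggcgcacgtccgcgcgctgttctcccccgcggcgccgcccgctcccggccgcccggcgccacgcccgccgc
The Slpi window held AATC at 2 places, the Anxa1 window AAATCA 28 bases before the start, and the Gclm window 1 match to TGACNNNGC. Such letters are common. Over windows of 250 bases before to 50 after the start, AATC was in 67.2% of the 131 promoters that matched 94 genes of the set and in 66.1% of the 11707 promoters of measured genes. AAATCA was in 10.69% and 8.45%, and TGACNNNGC, a motif added after the values were seen, in 15.3% and 14.2%. GGAAA, the core bound by NFAT, was in 54.2% and 58.9%, GATAA, bound by GATA factors, in 18.3% and 16.5%, and TGAGTCA, bound by AP-1, in 4.58% and 3.67%. CACGTG, the E-box, was in 6.11% and 9.91%, CAGAC, bound by Smad factors, in 43.5% and 47.2%, and GGGCGG, the GC box, in 58.0% and 61.5%. The motif of interferon regulatory factors, GAAA, any 2 bases and GAAA again, was in 1.53% and 2.96%. The promoters of the set had a median GC content of 60.7%, against 60.3% for measured genes.

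Across the 116 genes the median SH-2251 difference was 1.49 at rest, a 2.82-fold higher level, and 1.56 after restimulation, or 2.94-fold. These values chose the set and are given as a description. They ran from 1.01 to 4.16 at rest and from 1.00 to 4.47 after restimulation. In 14 genes the difference was 4-fold or more in both states. In 93 genes the 2 differences lay within 0.5 of each other, and the difference was larger after restimulation in 68 and at rest in 48 (41.4%). Over all 11459 genes the restimulated difference was above the resting one in 6045 and below it in 5414 (47.2%). The restimulated minus the resting difference had quartiles of -0.13 and 0.15 over all genes and -0.13 and 0.34 over the set. Over the 11459 genes above background, 187 (1.63%) were 2-fold higher in treated cells at rest and 248 (2.16%) after restimulation, and the median differences were -0.05 and -0.06. In RNA from whole cultures, fewer cells of a type and less RNA per cell cannot be told apart, and the same holds for more of either.

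**Figure D1:**
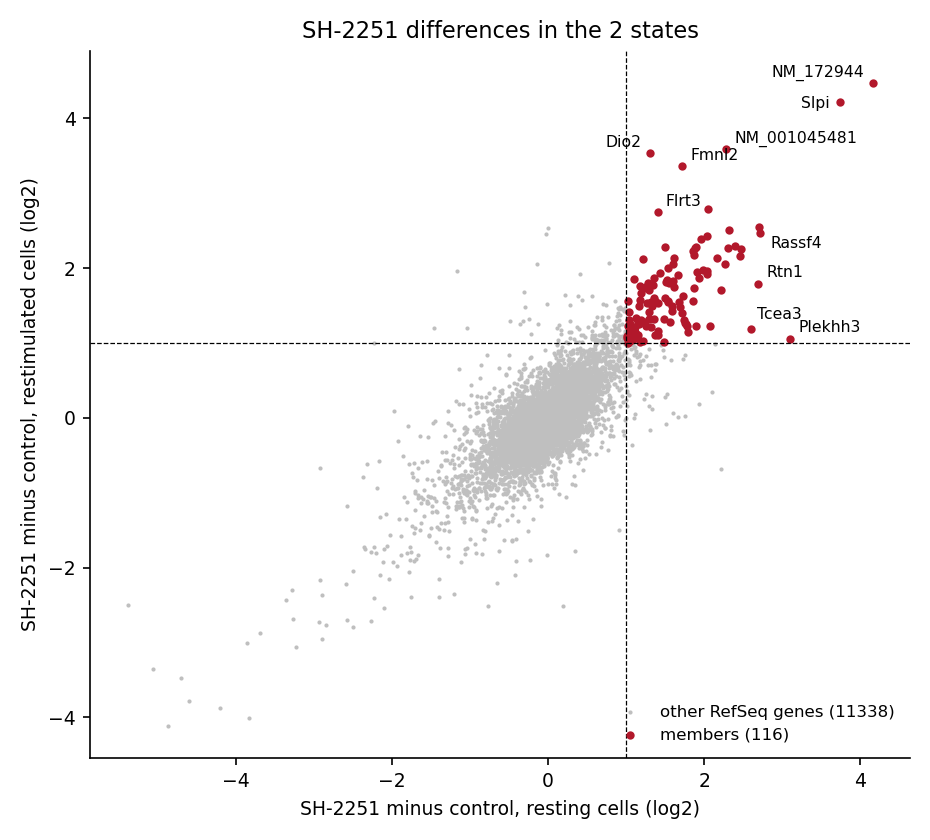
Each point is a RefSeq gene above background on all 4 arrays, with the SH-2251 minus control difference (log2) in resting cells on the x axis and in restimulated cells on the y axis. Red points are the 116 genes of the set, grey points the other genes without the 5 left out by name, and the dashed lines mark the threshold of 1. NM_172944 and Slpi lie farthest out, and Dio2 and Plekhh3 lie off the diagonal.

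The probes of the set were dim on the whole. Probes differ in how strongly they bind, so their signals do not rank the genes by amount of RNA. The mean level over the 4 arrays had a median of -0.96, against 0.92 for all 11459 genes. By this mean 73 of the 116 (62.9%) lay below the 75th percentile of the array, beside 38.3% of all genes. In 46 genes both control values were below -2, where the technical error is larger. At the other end, 26 genes were above the 75th percentile on all 4 arrays. Among these, Hmgn1, a nucleosome-binding protein, read 4.96 and 6.05 at rest and 5.28 and 6.33 after restimulation. It was close to the threshold, with SH-2251 differences of 1.09 and 1.05.

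The largest difference belonged to NM_172944, which has no symbol here. It read -2.79 in resting control cells and 1.37 in resting treated cells, and -2.85 and 1.63 after restimulation. Both control arrays were far below both treated arrays, by 4.16 ± 0.22 (technical SD) and 4.47 ± 0.22, and restimulation moved it little in either culture. NM_001045481 read -2.83 and -0.54 at rest and -2.76 and 0.84 after restimulation. Its control values were alike in the 2 states, while the restimulated treated cells stood 1.38 above the resting treated cells.

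Secreted and matrix proteins were represented by 7 genes. Slpi, the secretory leukocyte protease inhibitor, which blocks neutrophil elastase and related serine proteases, had the largest SH-2251 difference of them. Its level was 2.90 in resting control cells, 6.64 in resting treated cells, 3.53 in restimulated control cells and 7.75 in restimulated treated cells. The treated cells were 13.3-fold higher at rest, a log2 difference of 3.74 ± 0.20 (technical SD), and 4.22 ± 0.20 after restimulation. Stc1, the glycoprotein hormone stanniocalcin, read -3.52 and -1.66 at rest and -2.53 and -0.30 after restimulation, so each culture was higher after restimulation. Igfbp7, which binds insulin-like growth factors, differed by 1.93 and 1.87, and the collagen chain gene Col5a3 by 1.76 and 1.26. Rnase2a, of the eosinophil ribonuclease family, differed by 1.59 and 1.43, Svep1 by 1.56 and 1.28, and Olfm1 by 1.05 and 1.18. Rnase2a belongs to a family of close copies, whose transcripts a probe may not tell apart.

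Surface receptors and adhesion molecules made up 17 genes, with SH-2251 differences from 1.04 to 2.08 at rest and from 1.11 to 2.75 after restimulation. Havcr2 encodes TIM-3, an inhibitory receptor of activated T cells. It read -2.95 in resting control cells, -1.33 in resting treated cells, 2.05 in restimulated control cells and 3.79 in restimulated treated cells. The restimulated arrays were both above the resting arrays, and within each state the treated cells were higher, by 1.62 ± 0.23 (technical SD) and 1.74 ± 0.20. Flrt3, an adhesion protein of the fibronectin leucine-rich transmembrane family, read -3.73 and -2.33 at rest and -0.91 and 1.84 after restimulation. P2ry1, a receptor for ADP, read -2.65 and -0.67 at rest and -1.47 and 0.50 after restimulation, a difference of 1.98 in both states. Il1r1, the receptor for IL-1, read -2.89 and -1.57 at rest and -2.05 and -0.51 after restimulation. These 4 genes were all dim in resting control cells and higher in both cultures after restimulation.

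Other receptors went the opposite way on restimulation. Notch3, a receptor for Notch ligands, read -1.94 and -0.70 at rest and -3.99 and -2.26 after restimulation. Plxdc1, a transmembrane protein with a plexin-like domain, read -0.61 and 0.91 at rest and -2.50 and -0.66 after restimulation. Jaml, a junctional adhesion molecule that costimulates T cells, read 0.96 and 3.04 at rest and 0.09 and 1.32 after restimulation. In all 3 genes the SH-2251-treated cells stayed above control cells of the same state, and the restimulated treated cells were below the resting treated cells by more than 1.5 on the log2 scale. Among guidance molecules, Sema4a, a semaphorin that acts on T cells, differed by 1.18 and 1.58, Nrp2, a neuropilin co-receptor, by 1.29 and 1.32, and the ephrin ligand gene Efna5 by 1.72 and 1.40. The gene for CD7, a T cell surface protein, differed by 1.87 and 2.17, Dlk1, a ligand-like protein of the Notch family, by 2.03 and 1.97, and the bombesin-type receptor gene Grpr by 1.89 and 2.28. All of these last 3 had control values below -3. Procr, the receptor for protein C, differed by 1.27 and 1.54, Nectin3 by 1.20 and 1.67, Cd1d1, which presents lipids, by 1.13 and 1.11, and Clec2i, a C-type lectin, by 1.04 and 1.31.

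**Figure D2:**
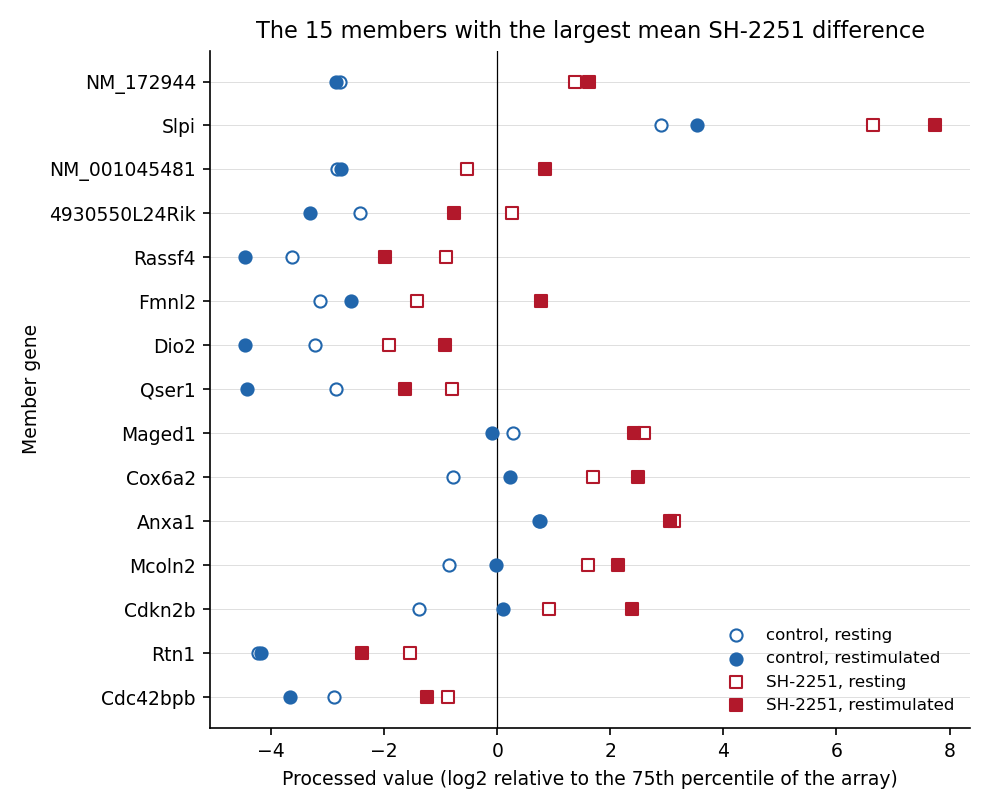
Processed log2 values on the 4 arrays for the 15 genes with the largest mean SH-2251 difference, largest at the top. Circles are control cells and squares SH-2251-treated cells, open at rest and filled after restimulation. Both squares lie to the right of both circles in every one of the 15 genes, which the rule favours, and Slpi is the only one above the 75th percentile by more than 2 on all 4 arrays.

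Cell cycle and growth control gave 6 genes. Cdkn2b encodes the CDK inhibitor p15INK4b and read -1.39 and 0.91 at rest and 0.11 and 2.38 after restimulation. Its neighbour Cdkn2a, whose transcripts encode the CDK inhibitor p16INK4a and the p53 regulator ARF, read -4.41 and -2.54 at rest and -3.42 and -1.69 after restimulation. After restimulation Cdkn2b was higher by 1.49 in control cells and 1.47 in treated cells, and Cdkn2a by 0.98 and 0.85. A single probe for Cdkn2a does not say which of its transcripts was measured. Of the 36 cell cycle genes that were listed and measured, Cdkn2a was the only one past 2-fold in either direction at rest or after restimulation. Rassf4, a Ras-association domain protein, differed by 2.71 and 2.47, and its relative Rassf3 by 1.02 and 1.00. Lats2, a kinase of the Hippo pathway, differed by 1.26 and 1.22, and Cables1, which links cyclin-dependent kinases to Abl, by 1.22 and 1.28.

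Nuclear proteins gave 11 genes. Lmna encodes lamins A and C, the filament proteins of the nuclear lamina. It read 2.41 in resting control cells, 4.37 in resting treated cells, 4.71 in restimulated control cells and 7.10 in restimulated treated cells. Resting treated cells were thus near the level of restimulated control cells, and restimulated treated cells were above both. Klf4, a zinc finger transcription factor that restrains T cell proliferation, read -0.19 and 1.00 at rest and 1.73 and 2.75 after restimulation. Id3, an inhibitor of E proteins, read 0.50 and 2.39 at rest and -0.03 and 1.20 after restimulation. Rxra, the shared partner of nuclear receptors for retinoids, vitamin D and thyroid hormone, read 1.06 and 2.23 at rest and 1.52 and 3.27 after restimulation. Rxra and Klf4 were higher after restimulation in both cultures, whereas Id3 was lower in both.

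The other nuclear genes included a second nuclear receptor. Thrb, a thyroid hormone receptor, differed by 1.68 and 1.48 and lay below -2 on all 4 arrays. Tcea3, of the transcription elongation factor SII family, read -4.13 and -1.54 at rest and -4.02 and -2.84 after restimulation, so its SH-2251 difference was 2.60 ± 0.30 (technical SD) at rest and 1.18 ± 0.30 after restimulation. Under the normexp background correction these were as low as 1.24 and 0.42. Tle1, a Groucho co-repressor, differed by 1.75 and 1.27, the homeobox gene Nkx6-1 by 1.54 and 1.80, and the zinc finger genes Sp6 and Zfp945 by 1.29 and 1.42 and by 1.27 and 1.80. Zfp945 belongs to a large family of zinc finger genes with similar sequence.

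Signalling and small GTPase pathways gave 19 genes. Anxa1 encodes annexin A1, a phospholipid-binding protein known for its anti-inflammatory action. It read 0.74 and 3.13 at rest and 0.76 and 3.06 after restimulation, so that restimulation moved it by 0.02 in control cells and -0.07 in treated cells. Fmnl2, a formin that builds actin filaments, read -3.13 and -1.42 at rest and -2.58 and 0.78 after restimulation. Cdc42bpb, a kinase downstream of CDC42, differed by 2.03 and 2.43, and Arrdc3, an arrestin-domain adaptor, by 2.04 and 1.93. The kinase genes Src, Mapk13 and Map3k20 differed by 1.27 and 1.77, by 1.59 and 1.49 and by 1.04 and 1.42. Src read -2.49 and -1.22 at rest and -1.99 and -0.22 after restimulation, and Marcks, an actin-binding substrate of protein kinase C, read 1.91 and 3.27 and then 2.84 and 4.44. By symbol, 5 of the 209 measured genes for small GTPases and their regulators (2.39%) were in the set, beside 1.01% of all measured genes. They were Rasgef1b, Rab15 and Rab31, with Rassf4 and Rassf3 from the growth control role. It is 1 of 24 symbol families, and nothing is read from its share. Among the others, the set held 0 of 290 ubiquitin ligases and related genes, 0 of 133 phosphatases and 0 of 142 chromatin modifiers. It held 2 of 351 zinc finger genes and 2 of 17 semaphorins, plexins and neuropilins.

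Metabolic and redox enzymes gave 14 genes. Dio2, the deiodinase that makes active thyroid hormone from thyroxine, read -3.22 and -1.92 at rest and -4.46 and -0.93 after restimulation. It was thus lower after restimulation in control cells and higher in treated cells. Cox6a2, the muscle-type subunit of cytochrome c oxidase, read -0.79 and 1.69 at rest and 0.22 and 2.48 after restimulation. The fucosyltransferases Fut7 and Fut4 make selectin ligands on leukocytes. Fut7 read 2.61 and 4.23 at rest and 1.10 and 3.23 after restimulation, and Fut4 differed by 2.22 and 1.71. Rdh10, which makes retinaldehyde on the way to retinoic acid, read 0.79 and 1.91 at rest and 0.05 and 1.39 after restimulation. A second Rdh10 probe gave SH-2251 differences of 0.91 and 1.11, under 2-fold at rest. Its restimulation responses were -1.56 and -1.36, beside -0.74 and -0.52 for the chosen probe. Of the 13 listed retinoic acid genes that were measured, Rdh10 and Rxra were 2-fold higher in both states by their chosen probes. In each state 4 were 2-fold lower, among them Tgm2 at -4.71 and -3.47 and Hic1 at -4.88 and -4.11.

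Nqo1 and Gclm are textbook targets of the oxidative stress factor NRF2. Nqo1, a quinone reductase, read -3.38 and -1.95 at rest and -3.84 and -1.91 after restimulation. Gclm, the modifier subunit of the enzyme that starts glutathione synthesis, whose promoter is printed above, read -3.01 and -1.89 at rest and -3.19 and -2.04 after restimulation. They were the 2 genes past 2-fold upward among 26 measured NRF2 and glutathione genes, whose median differences were 0.01 and 0.14, and Osgin1 was lower by -2.84 and -2.76. Ptgr1, a prostaglandin reductase, differed by 1.05 and 1.08, Alox5ap, needed for leukotriene synthesis, by 1.11 and 1.22, Maoa, a monoamine oxidase, by 1.37 and 1.10, and Acox2, a peroxisomal oxidase, by 1.61 and 1.83.

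Proteases, lysosomal enzymes and the ubiquitin pathway gave 6 genes, with differences from 1.01 to 1.53 at rest and from 1.06 to 1.71 after restimulation. They were Cpe and Cpq, which are carboxypeptidases, Capn3, a calpain, Arsk, a sulfatase, Ppt1, a lysosomal thioesterase, and Uchl1, a ubiquitin hydrolase. The interferon-inducible genes Iigp1 and Zbp1 differed by 1.16 and 1.25 and by 1.05 and 1.25. They were 2 of 48 measured interferon-inducible genes (4.17%, beside 1.01% of all measured genes). Of the 48, 7 were 2-fold lower at rest and 5 after restimulation, where 2.16% and 1.83% of all genes were, with Usp18 at -2.11 and -2.54.

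The remaining 34 genes had other roles or were not assigned one. They include Maged1, a MAGE family adaptor, at 0.28 and 2.60 at rest and -0.09 and 2.43 after restimulation, and Mcoln2, an endolysosomal cation channel, at -0.85 and 1.61 and then -0.02 and 2.14. Rtn1, a reticulon of the endoplasmic reticulum, read -4.23 and -1.54 at rest and -4.18 and -2.38 after restimulation. Habp4 differed by 2.16 and 2.14, Stbd1, which binds glycogen, by 2.27 and 2.05, and Qser1 by 2.05 and 2.78. The clone-named gene 4930550L24Rik differed by 2.70 and 2.55, and D030056L22Rik read 2.15 and 3.65 at rest and 2.55 and 4.84 after restimulation.

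Hba-a1, an alpha globin gene and a marker of red cells, was also in the set. It read -1.70 and -0.55 at rest and -2.26 and -0.98 after restimulation, and it belongs to a pair of near-identical genes that a probe cannot separate. Of the other red cell markers, Slc4a1 differed by -0.02 and -0.55, and Epor by -1.31 and -0.79. Alas2, the first enzyme of heme synthesis in red cells, was above background on the restimulated treated array alone, at -3.08, where it read -6.91 on the restimulated control array. The summed level of the 5 red cell markers on the array was 0.85 and 0.94 at rest and 0.68 and 0.91 after restimulation, on a linear scale on which 1 is the 75th percentile. The part of red cells in the Hba-a1 value was not tested.

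In all, 10 genes of the set were in one of the 21 pathway lists. The 10 were Il1r1, Havcr2, Iigp1, Zbp1, Rxra, Rdh10, Notch3, Cdkn2a, Nqo1 and Gclm. None was among the 15 measured Th2 identity genes, the 14 Th1 genes or the 39 early genes of T cell receptor signalling. None was among the 12 measured genes reported as repressed by Gfi1 in blood cells, of which the only one 2-fold higher was Itgae, left out by name. None was among the 25 measured ATF4 and ER stress genes, although 5 of those were 2-fold higher at rest, nor among the 29 glycolysis and hypoxia genes or the 33 sterol and fatty acid synthesis genes. The set is 1.01% of measured genes, a share that leaves less than 1 gene for a list of any of these sizes, so nothing is read from the absences. By position, 3 pairs of the set were adjacent protein-coding genes in the RefSeq order: Cdkn2b and Cdkn2a, Lmna and Sema4a, and 4930550L24Rik and Fgf13. The number of pairs to be found in a random set of this size was not worked out, so nothing is read from the count.

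Restimulation for 4 h left most of the set within 2-fold. In control cells, 12 of the 116 genes (10.3%) were 2-fold or more higher after restimulation and 15 (12.9%) lower, where 6.52% and 6.94% of all 11459 genes were higher and lower. In SH-2251-treated cells, 19 (16.4%) were higher and 15 (12.9%) lower, where 6.61% and 6.55% of all genes were. The median response was -0.20 in control cells and -0.13 in treated cells, against -0.06 and -0.05 over all genes. The same 4 arrays chose the set, so these counts are a description. The share higher was larger among the genes with brighter probes. Of the 43 genes with a mean level of 0 or above, 8 (18.6%) were higher in control cells and 11 (25.6%) in treated cells, beside 6.83% and 6.84% of all genes of that level. Of the 73 below 0, 4 (5.48%) and 8 (10.96%) were higher, beside 6.02% and 6.25%. Of the brighter genes, 6 (13.95%) were lower in control cells and 5 (11.63%) in treated cells, beside 5.10% and 4.90% of all genes of that level. Of the dimmer ones, 9 (12.33%) and 10 (13.70%) were lower, beside 9.90% and 9.22%.

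**Figure D3:**
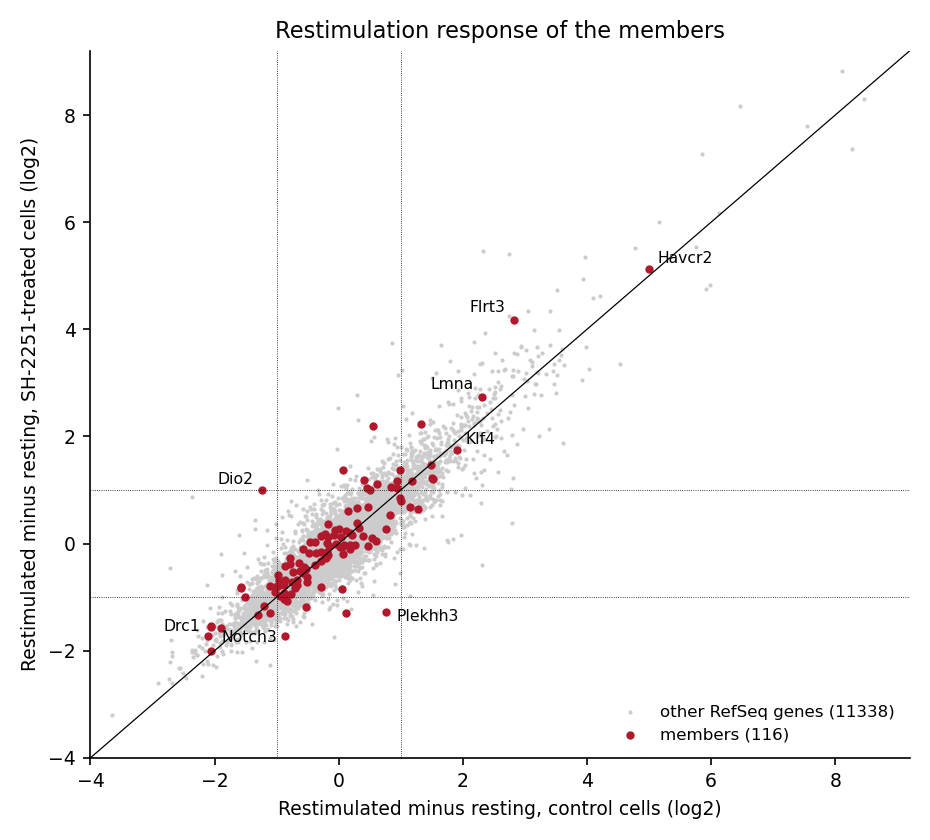
Restimulated minus resting difference (log2) in control cells on the x axis and in SH-2251-treated cells on the y axis, for the 116 genes of the set (red) and the other genes above background (grey). The solid line marks equal responses and the dotted lines 2-fold. Havcr2 had the largest response of the set (5.12 in treated cells), and Dio2 and Plekhh3 lie in opposite corners off the line.

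Both cultures were 2-fold higher after restimulation for 9 genes: Havcr2, Flrt3, Lmna, Klf4, Cdkn2b, P2ry1, Efna5, Niban1 and Ccdc184. Havcr2 stood apart with 31.9-fold in control cells and 34.8-fold in treated cells. Flrt3 was next, with log2 responses of 2.82 ± 0.28 (technical SD) and 4.17 ± 0.22, and Lmna followed with 2.31 and 2.73. The responses of Klf4 were 1.91 and 1.75, of Efna5 1.53 and 1.21, and of Ccdc184 1.32 and 2.23. Cox6a2, Plekha1 and Cep85l passed 2-fold in control cells alone, by 1.01, 1.28 and 1.15, with 0.79, 0.64 and 0.69 in treated cells. For 10 genes the treated cells alone passed it, namely Slpi, NM_001045481, Fmnl2, Stc1, D030056L22Rik, Src, Marcks, Rxra, Il1r1 and Iigp1. Several of these were near the threshold in both cultures, such as Stc1 with 0.98 and 1.37 and Iigp1 with 0.94 and 1.03, whereas Fmnl2 had 0.55 and 2.20. A second Fmnl2 probe gave responses of -0.02 and -0.31, that of Plekha1 0.30 and 0.74, and that of Efna5 0.96 and 0.75. The further probes of Lmna gave 2.40 and 2.76 and 2.40 and 2.80, and that of Rxra 0.94 and 1.74.

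Both cultures were 2-fold lower after restimulation for 8 genes: Drc1, Plxdc1, Zfp945, Notch3, Glcci1, Add3, Wscd2 and 9530077C05Rik. Drc1, a part of the regulatory complex of motile cilia, read 0.54 and 2.43 at rest and -1.56 and 0.71 after restimulation, which are responses of -2.10 and -1.72. 9530077C05Rik read -1.39 and -0.38 at rest and -3.44 and -2.38 after restimulation. The responses were for Zfp945 -2.06 and -1.53, and for Notch3 -2.05 and -1.56. Glcci1, a gene known as glucocorticoid-induced, had -1.20 and -1.17, and the adducin gene Add3 had -1.10 and -1.29. Second probes gave -1.25 and -1.21 for Glcci1 and -1.22 and -1.21 for Add3, but -0.14 and -0.12 for Wscd2. Dio2, Qser1, Fut7, Tspoap1, Sp6, Nmrk1 and Tmco3 passed 2-fold downward in control cells alone, and 4930550L24Rik, Rassf4, Plekhh3, Tcea3, Jaml, Id3 and Capn3 in treated cells alone. That split rests on the chosen probes. The second probe of 4930550L24Rik gave -1.45 and -1.30 and that of Jaml -1.15 and -1.82, past 2-fold in both cultures. For Rassf4 the second probe gave -0.34 and -1.55. No gene of the set was 2-fold higher in one culture and 2-fold lower in the other.

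**Figure D4:**
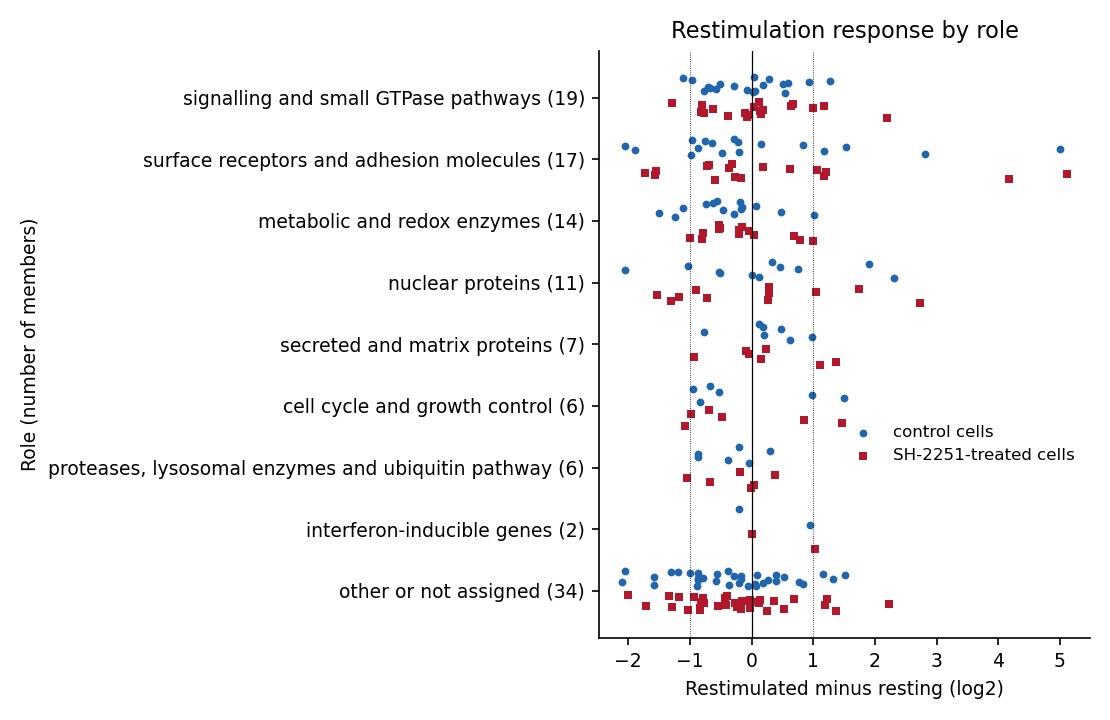
Restimulated minus resting difference (log2) of every gene of the set, grouped by role, with blue circles for control cells and red squares for SH-2251-treated cells and dotted lines at 2-fold. The roles were assigned from general knowledge after the members were known. Surface receptors span the widest range, from -1.72 to 5.12 in treated cells. No metabolic enzyme passed 2-fold in treated cells, where Dio2 and Fut7 lay just under it.

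By role, surface receptors and adhesion molecules had 4 genes 2-fold higher and 2 lower in control cells, and 5 higher and 3 lower in treated cells. Among the 14 metabolic and redox enzymes, Cox6a2 was higher and Dio2, Fut7 and Nmrk1 were lower in control cells, and none passed 2-fold in treated cells, where the range was -0.99 to 0.99. In treated cells Dio2 at 0.993 and Fut7 at -0.992 lay just under 2-fold. Nuclear proteins had 2 higher and 2 lower in control cells and 3 of each in treated cells. Over all 11459 genes, 6.52% were higher and 6.94% lower in control cells, and 6.61% and 6.55% in treated cells. The roles hold few genes each, so nothing is read from their counts.

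The gap between the 2 SH-2251 differences of a gene equals the gap between its restimulation responses. It reached 1 in 6 genes of the set (5.17%), beside 1.26% of all genes. The 2 differences behind the gap also chose the set, and the set was dimmer than all genes. Nothing is therefore read from these 2 shares, and the gaps are given as a description. In Dio2 it was 2.23 ± 0.41 (technical SD), in Fmnl2 1.65 ± 0.33, in Flrt3 1.35 ± 0.36 and in NM_001045481 1.31 ± 0.32, all with the larger SH-2251 difference after restimulation. The second Fmnl2 probe did not show this gap, with SH-2251 differences of 0.20 and -0.09. In Plekhh3 it was -2.05 ± 0.29 and in Tcea3 -1.41 ± 0.42, with the larger difference at rest. Rtn1, Jaml and Id3 followed in that direction with -0.90, -0.86 and -0.66. The lowest control values of Dio2, Flrt3 and Tcea3 were -4.46, -3.73 and -4.13, and on the 4 arrays the dimmest probes called well above background read between -4.74 and -4.65.

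A measure that the rule did not use comes from other probes of the same genes. The array held 59 further RefSeq probes for 43 of the genes, and 25 of these, for 23 genes, were above background on all 4 arrays. Of the 25, 16 (for 15 genes) were also 2-fold higher in treated cells in both states, and 22 were above 0 in both states. Among all 5209 unused RefSeq probes of measured genes that were above background on all 4 arrays, 0.442% were 2-fold higher in both states. These probes read the same 4 RNA samples, so they check the probe and not the culture. Both further probes of Lmna gave 2.02 and 2.37 and 2.10 and 2.50, beside 1.96 and 2.38 for the chosen probe. The second probe of Habp4 gave 2.51 and 2.27, that of 4930550L24Rik 2.73 and 2.89, and that of Rassf4 2.95 and 1.74.

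**Figure D5:**
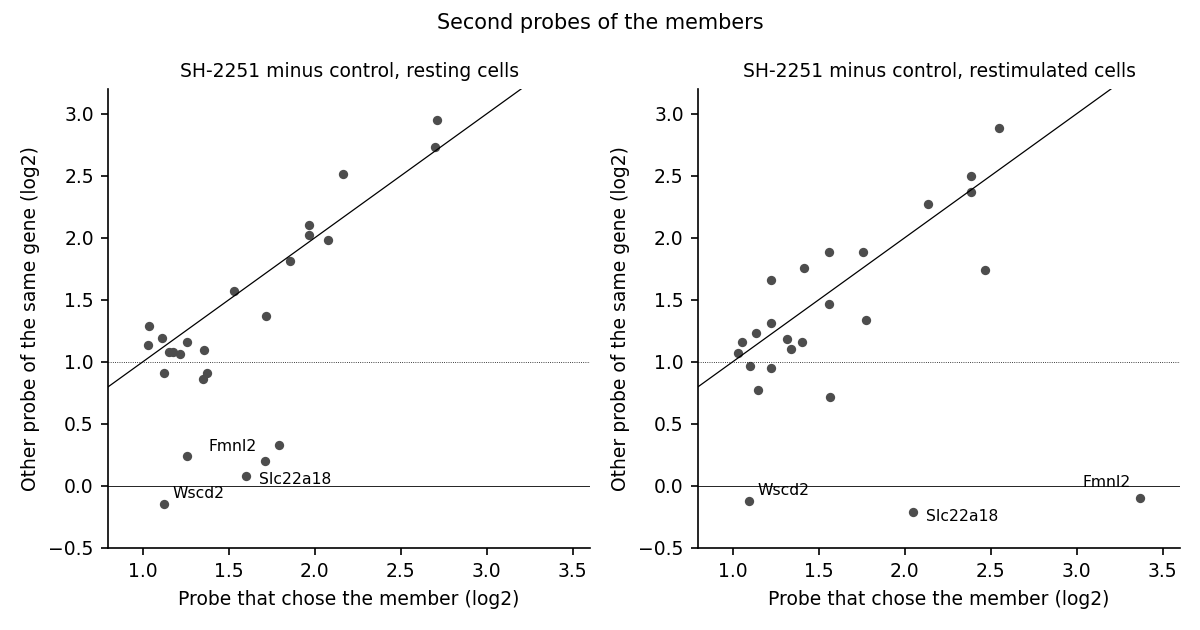
SH-2251 minus control difference (log2) of the probe that chose the gene on the x axis and of another probe of the same gene on the y axis, for resting cells at the left and restimulated cells at the right, 25 probes in each. The solid line marks equality and the dotted line 2-fold. Most probes lie near the line, and those of Fmnl2, Slc22a18 and Wscd2 lie near 0.

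In 3 genes the other probe was below 0 in a state. The second Fmnl2 probe gave 0.20 and -0.09 beside 1.71 and 3.37, that of the transporter gene Slc22a18 gave 0.08 and -0.21 beside 1.60 and 2.05, and that of Wscd2 gave -0.15 and -0.12 beside 1.13 and 1.09. The second probe of Plekha1, at 0.33 and 0.77, was higher in both states but under 2-fold. Lats2 had 2 further probes, one at 1.16 and 1.66 and one at 0.24 and 0.95. For Atrnl1 the restimulation responses conflicted, at -0.88 and -0.93 with the chosen probe and 1.24 and 1.13 with the second. For 93 of the 116 genes no other probe was above background on all 4 arrays.

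Just inside the threshold lay Rassf3 with differences of 1.02 and 1.00, 9530077C05Rik with 1.01 and 1.06, and Uchl1 with 1.01 and 1.09. Just outside lay NM_024477 with 1.19 and 0.996, Man1a with 0.994 and 1.06, and Tead1 with 0.993 and 1.13. All 6 were nearer to the threshold than their technical SD. The number in the set also moved with the background correction: normexp on the median spot signals with an offset of 50 left 61 genes past 2-fold in both states, 59 of them shared with the 116. Of the genes described, Gclm, Nqo1, Cdkn2a, Iigp1, Notch3, Rtn1, Klf4, Tcea3 and Plekhh3 were among those under 2-fold in a state with it, also when spots of uneven background were left out, and Gclm was as low as 0.63 at rest and 0.60 after restimulation. Havcr2, Flrt3 and Dio2 were under 2-fold at rest with 1 of these 2 corrections, at 0.98, 0.64 and 0.67.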

How the data were processed

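RNA from the 4 conditions (500 ng each) was labelled with Cy3 and hybridised to 4 Agilent 44K arrays. Per the labels, spots were read with Agilent Feature Extraction 10.7. The authors deposited spot intensity values, already corrected for background, and a table of log2 values normalised with the Subio Platform. Those log2 values equalled the log2 intensity minus the 75th percentile of the array (within 0.01 for 99.6% of probes on each array); they were used as deposited. Percentiles were 499 to 614 intensity units. Between 56.0% and 56.7% of 41174 probes were well above background, and no spot was saturated. Of 245 probes with 10 spots each, 135 to 140 per array were well above background at every spot. The repeat spots of these brighter probes differed with a median SD of 0.048 to 0.056, which does not cover the dimmer ones. The number of arrays limits the precision.

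Probes with a RefSeq mRNA accession (27006, of which 98.6% matched a symbol in the GRCm38.p6 table) were reduced to the probe with the highest mean signal per gene. The array was designed on another assembly, so the only coordinates given are those of the RefSeq promoters. Control spots were left out. Differences are SH-2251 minus control and restimulated minus resting. The technical SD combines the error the software gives for each spot intensity. No test between conditions was made. The selection rule was checked on simulated data with known changes.

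The members, 21 pathway lists, 7 marker lists and 24 symbol families were chosen with earlier results of these data known, and the roles were assigned after the members were known. Genes followed in detail were the 15 largest mean differences, the 5 largest responses to restimulation in each direction in control cells, the 5 largest gaps between the responses in each direction, the 5 brightest, pathway list members, genes with a conflicting second probe, those at the threshold, the 2 with opposed responses and 5 check genes. Some results that meet this rule are not reported here. Other genes of the set are named by role and were chosen after their values were seen. Alternatives changed the scaling, background correction (normexp in limma 3.58.1), probe choice, outlier spots, filter and fold. Python 3.11.15 with numpy 2.4.6, pandas 2.3.3 and matplotlib 3.10.9, and R 4.3.3, were used.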

Additional observations from a re-analysis of the deposited data

Results flagged for a closer look

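In 2 genes the response to restimulation ran in opposite directions in the 2 cultures, by at least 1.5-fold each. Dio2 had a restimulated minus resting difference of -1.24 in control cells and 0.99 in SH-2251-treated cells. Plekhh3 had 0.76 in control cells and -1.29 in treated cells. Under the normexp correction, the Dio2 responses kept their signs but were as small as -0.43 and 0.30, both under 1.5-fold, and those of Plekhh3 were as small as 0.65 and -1.02. The difference between the cultures was not tested, as each value rests on 1 array. Dio2 was at -4.46 in restimulated control cells, near the lowest level called well above background, whereas Plekhh3 lay between -1.15 and 1.96 on the 4 arrays.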

How the results depend on the processing

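The set of 116 genes kept its size within 1.5 times under the scanner intensities, median centring, quantile normalisation, the mean of all probes, the rule on every probe, all named probes and without outlier spots (at most 138 genes). Normexp left 61, and 65 without 15 spots of uneven background. Its offset of 50 draws dim values together by construction. A filter on 1 array of each pair gave 180 genes, no filter 230, a 1.5-fold threshold 376 and a 3-fold threshold 34. The medians of the set fell under normexp to 1.23 at rest and 1.10 after restimulation, and to 1.10 and 1.10 without the uneven spots. Of the 116, 111 passed the rule under all 6 value settings other than normexp, and 48 under all 8. Fmnl2, Slc22a18, Plekha1, Lats2 and Wscd2 were the 5 lost, with the mean of all probes. Of the restimulation counts, 15 genes lower in control cells became 8 under both normexp settings and 37 and 5 at 1.5-fold and 3-fold. Genes higher in control cells became 22 and 4, those lower in treated cells 36 and 3, and those higher in treated cells 6 at 3-fold. No value of 2-fold or more changed sign in the 7 alternatives run on the named genes. Of 212 values of named genes, 13 under 2-fold did change sign in at least 1 of them, under median centring, quantile normalisation or normexp, and the largest was the Cdkn2a response in treated cells, from 0.85 to -0.04. No paired fit was run: an additive fit of treatment and state on the 4 arrays would leave 1 residual degree of freedom, and the set was chosen on the same differences. Probes near background on a control array limit the dim genes of the set.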
